A study of Mus musculus with 12 samples.

Results

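The 3 genes described here are tied to the transgenes of the 3xTg-AD mouse: App and Mapt are the mouse counterparts of the human genes that the transgenes carry, and Thy1 gives the cassette that drives them. They were found by symbol, 1 row each, among the 32285 mouse genes of the feature list. Single-nucleus RNA sequencing (snRNA-seq) was done on left hippocampi of female mice, with 1 library from each of 12 animals and 3 libraries in each of 4 groups. The engineered alleles of the 3xTg-AD mice, on a mixed B6 and 129 background, included the APPSwe and tauP301L transgenes, and wild-type (WT) littermates carried neither transgene; both genotypes were sampled at 6 and 12 months. Sorted nuclei were profiled with a 3′ droplet kit, in which each captured RNA molecule is counted once by its unique molecular identifier (UMI). Values per group are given in the order of the library numbers, which were 3, 7 and 11 for WT and 1, 5 and 9 for 3xTg-AD at 6 months, and 4, 8 and 12 for WT and 2, 6 and 10 for 3xTg-AD at 12 months.

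App encodes the amyloid precursor protein, a single-pass membrane protein that secretases cut to release, among other fragments, the amyloid-β peptide. Mapt encodes tau, a microtubule-binding protein of axons that aggregates in Alzheimer's disease. Thy1 encodes a small glycosylphosphatidylinositol (GPI)-anchored surface protein of neurons and T cells, and its regulatory elements are widely used to express transgenes in neurons after birth. In the 3xTg-AD line both human cDNAs are placed under the mouse Thy1 cassette, so the transgenes follow the pattern of that cassette and not that of App or Mapt. The endogenous App, Mapt and Thy1 genes remain in both genotypes.

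In the mouse genome GRCm38 with the GENCODE vM21 annotation, App (ENSMUSG00000022892) spans chr16:84949685-85173766 on the minus strand, and its principal transcript App-201 has 16 exons. Mapt (ENSMUSG00000018411) spans chr11:104231390-104332090 on the plus strand with 12 exons in its principal transcript. Thy1 (ENSMUSG00000032011) is much shorter, with 4 exons within chr9:44043384-44048579 on the plus strand. Exons of the principal transcript make up 1.45% of the span of that transcript for App, 1.41% for Mapt and 33.4% for Thy1. The feature list holds 3 antisense genes that lie within App (Gm10791, Gm49227 and Gm49226, with 4329, 2215 and 9138 UMIs) and 1 within Mapt (Gm11659, with 30098 UMIs), and none that overlaps Thy1. The feature list holds no row for a human gene or a transgene, so the values below are those of the mouse genes as counted. How far reads of the human transgenes, or of Thy1 sequence within them, were counted under the mouse genes was not tested.

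The libraries held 185643 barcodes, of which 184956 were retained (11352 to 19811 per library) with 79177051 to 128323908 UMIs each. The 3xTg-AD libraries held 101221173 to 128323908 UMIs and the WT libraries 79177051 to 103700795. Any pair of libraries shared 29 to 107 barcodes. Nuclei were placed in 11 classes by fixed marker genes. Those that passed the gate of no class (2.78%) or of several (2.77%) were left out of the classes. Another 34984 nuclei (18.9%) passed the gate of neurons but held mixed or too few transmitter markers, and were in none of the classes either. The 6 main classes were excitatory neurons (36819 nuclei), inhibitory neurons (42504), astrocytes (20103), oligodendrocytes (29228), oligodendrocyte precursor cells (OPCs, 4085) and microglia (1940). Excitatory neurons were defined by UMIs of the vesicular glutamate transporters Slc17a7 or Slc17a6 and inhibitory neurons by Gad1, Gad2 and Slc32a1. The summed level of the excitatory markers was 211 to 268 CPM (UMIs of a gene per 1000000 UMIs of the class in a library) in excitatory neurons and 8.46 to 27.0 CPM in astrocytes. The gate itself required these markers in excitatory neurons, so their level is not a separate check of that class. Nuclei with the markers of neurons outside the hippocampal formation were common although the label names the hippocampus: 24556 excitatory nuclei held Slc17a6 without Slc17a7 and 7399 held Slc17a7 without Slc17a6, and 5925 nuclei passed the gate of thalamic neurons and 6429 that of striatal medium spiny neurons, against 2052 dentate granule, 1136 CA1 pyramidal and 493 CA3 pyramidal nuclei. Since sums per class are compared, a higher level cannot be told apart from a shift in the kinds of neuron within a class.

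Retained nuclei held 722162 UMIs of App, 493856 of Mapt and 59855 of Thy1. Excitatory neurons, 19.9% of nuclei, held 32.5% of the App UMIs, 29.1% of the Mapt UMIs and 39.4% of the Thy1 UMIs. Inhibitory neurons, 23.0% of nuclei, held 27.7%, 24.5% and 27.6% of them. Neurons without a set transmitter, 18.9% of nuclei and outside the classes, held 21.9%, 20.6% and 24.9%. Outside neurons the 3 genes parted: oligodendrocytes, 15.8% of nuclei, held 18.8% of the Mapt UMIs and 11% of the App UMIs but 1.84% of the Thy1 UMIs.

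App was detected in every class, and its level relative to all UMIs of a class was higher in endothelial cells and oligodendrocytes than in neurons. Over the 12 libraries it averaged 1452 ± 220 CPM (SD, n = 12) in endothelial cells and 1229 ± 143 CPM in oligodendrocytes, and the first exceeded the second in 11 of 12 libraries although their ranges overlapped. Choroid plexus epithelium (971 ± 466 CPM) and meningeal cells and fibroblasts (683 ± 74.9 CPM) came next. Choroid plexus epithelium was the least certain of these, since as few as 1 nucleus of a library stood behind its value.

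Excitatory neurons averaged 614 ± 32.8 CPM of App and inhibitory neurons 550 ± 23.1 CPM, with the excitatory value higher in 12 of 12 libraries. Within a library, oligodendrocytes held a median of 2.04 times the App level of excitatory neurons (range 1.56 to 2.42) and 4.31 times that of OPCs (3.86 to 5.34). The lowest levels of App were those of OPCs (276 ± 25.5 CPM), ependymal cells (245 ± 100 CPM) and astrocytes (124 ± 15.8 CPM). Excitatory neurons exceeded astrocytes by 4.36 to 6.03 times. The class of pericytes lay between neurons and microglia, at 485 ± 97.3 CPM against 315 ± 29.9 CPM, without overlap between the latter pair.

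Mapt was concentrated in the oligodendrocyte lineage and in neurons. Oligodendrocytes held 1473 ± 106 CPM of Mapt (n = 12), and their lowest library (1196 CPM) lay far above the highest library of any other class. Excitatory neurons (377 ± 18.6 CPM), OPCs (347 ± 23.6 CPM) and inhibitory neurons (335 ± 26.5 CPM) followed with overlapping ranges. Astrocytes stood apart from both their neighbours in this order at 171 ± 25.3 CPM.

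Per library the Mapt level of oligodendrocytes was 3.4 to 4.32 times that of excitatory neurons and 3.67 to 4.78 times that of OPCs. The other classes were low, from 39.8 ± 17.7 CPM in endothelial cells to 17.0 ± 12.4 CPM in ependymal cells, and microglia at 24.4 ± 12.8 CPM rested on 1 to 13 UMIs per library.

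Among the main classes Thy1 was highest in neurons. Counts of 3′ tags were not scaled by gene length, so levels are compared between classes and not between genes. Excitatory neurons averaged 61.8 ± 9.41 CPM of Thy1 and inhibitory neurons 45.6 ± 5.84 CPM, with the former higher in 12 of 12 libraries by 1.17 to 1.54 times. Excitatory neurons also exceeded astrocytes (21.6 ± 5.39 CPM) by 2.17 to 4.44 times and oligodendrocytes (16.8 ± 8.43 CPM) by 2.13 to 8.88 times, in 12 of 12 libraries each. OPCs were lowest at 11.8 ± 6.64 CPM. In the rare classes the values rested on 0 to 15 UMIs per library, and the 30.2 ± 83.4 CPM of choroid plexus epithelium came from a range of 0 to 294 CPM, so no order among them is given.

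**Figure D1:**
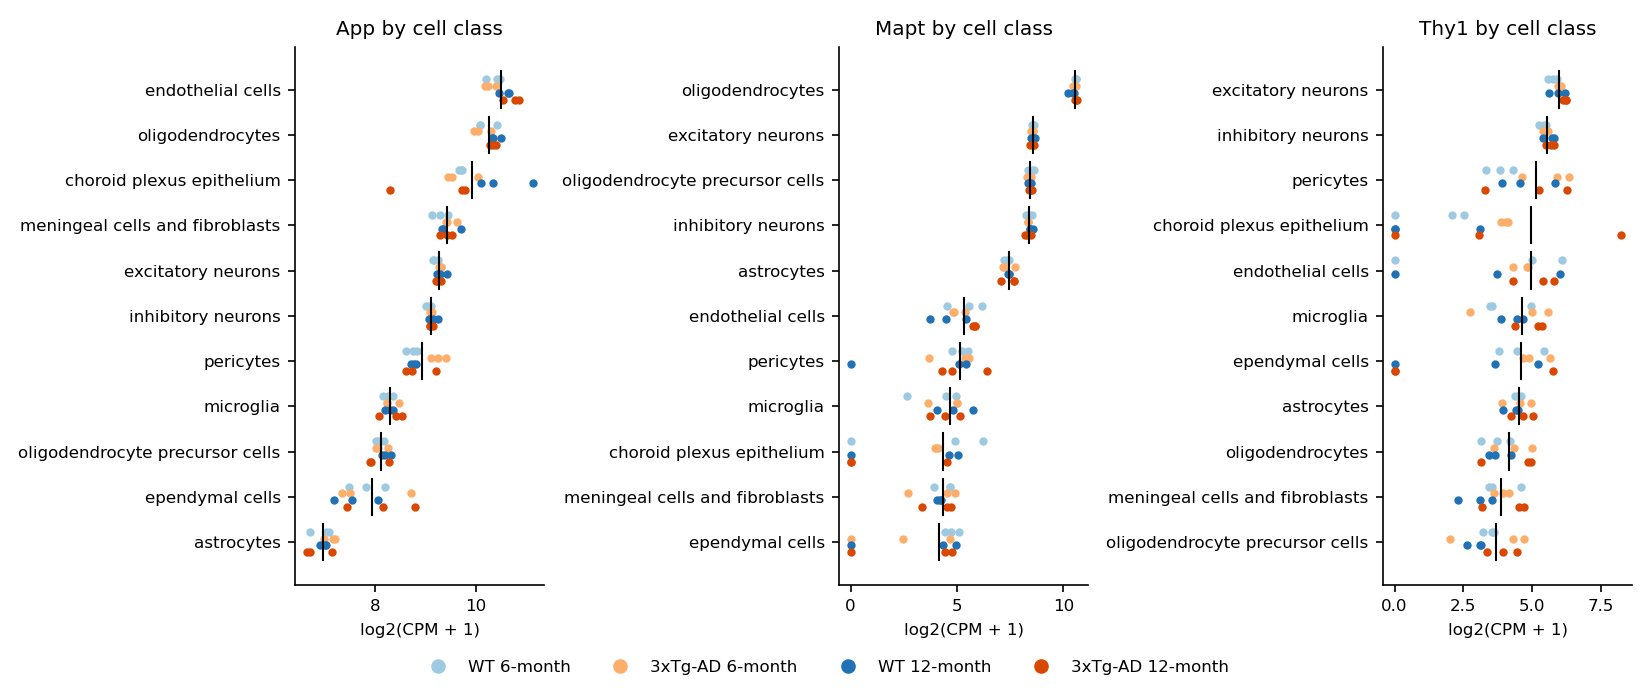
Level of App, Mapt and Thy1 in each cell class as log2(CPM + 1), 1 point per library coloured by genotype and age, with the mean of 12 libraries as a vertical line and the classes sorted by that mean. Oligodendrocytes lie to the right of all other classes for Mapt (1196 to 1582 CPM), and excitatory neurons lead for Thy1 (46.9 to 73.9 CPM).

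The share of nuclei with at least 1 UMI was taken after every nucleus was thinned to 1000 UMIs. It comes from the same UMIs as the levels and is not separate evidence. Both measures are relative to all UMIs of a nucleus. Unthinned, 36819 excitatory nuclei held 234803 App and 143470 Mapt UMIs, and 29228 oligodendrocyte nuclei held 79391 and 92746. Per nucleus, excitatory neurons thus held more of both. App was found in 70.1 ± 4.55% of WT oligodendrocytes and 44.0 ± 2.0% of WT excitatory neurons (SD, n = 6 libraries), and Mapt in 75.0 ± 3.24% and 31.7 ± 1.2%. Thy1 was found in 5.7 ± 0.792% of WT excitatory neurons and 4.55 ± 0.633% of WT inhibitory neurons. Microglia, which make little if any Thy1 or tau, gave 1.72 ± 0.997% for Thy1 and 2.1 ± 1.47% for Mapt, levels that are read here as background. Thinning left out 14 of 17565 WT and 6 of 19254 3xTg-AD excitatory nuclei, and 122 of 820 and 162 of 1120 microglia. Before thinning, at median depths of 8047 to 12165 UMIs per nucleus in WT excitatory neurons and 1319 to 2258 in WT microglia, Thy1 was found in 40.6 ± 6.94% and 3.22 ± 1.77% of nuclei.

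The genes whose levels ran most closely with each member across the 6 main classes and 12 libraries (72 values, 14899 genes compared) differed by member. For App they were Shtn1 (Pearson r = 0.93), Ralgps1 (0.928) and Lpgat1 (0.926), and for Mapt they were Prickle2 (0.967), Nfasc (0.964) and its own antisense gene Gm11659 (0.96). For Thy1 they were Atp1b1 (0.868), Camk2a (0.852) and Syp (0.843). Nfasc encodes neurofascin, an adhesion protein of axons and myelinating glia, and Syp encodes synaptophysin, a synaptic vesicle protein. These correlations describe 72 values that share 12 libraries, and reads of Mapt and Gm11659 could be told apart only if counting used strand, which is not given in the sources used here. Between the members, r was 0.564 for App and Mapt, 0.194 for App and Thy1 and 0.02 for Mapt and Thy1.

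Within excitatory neurons, over the 12 libraries and 11479 genes, the closest genes were others. They were Syt11 (r = 0.919), Amd1 (0.915) and Tgoln1 (0.894) for App, Lamtor1 (0.949), Parl (0.923) and Slc25a38 (0.923) for Mapt, and Tomm22 (0.887), Rps27 (0.886) and Rpa3 (0.876) for Thy1. These are descriptions over libraries that differ in depth and in the kinds of neuron they hold.

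Next, 3xTg-AD was compared with WT at each age, which asks whether the counts assigned to the mouse genes differ in the animals that carry the transgenes. Whether transgene reads are among these counts was not tested. The UMIs of each gene in a class were added up per library and fitted with edgeR's quasi-likelihood test. Genes with an adjusted p under 0.05 (Benjamini-Hochberg over all genes tested in the class) and an absolute log2 fold change over 0.2 are referred to as called. Only the 6 main classes were fitted at this step. App was tested in all of them and Mapt and Thy1 in 5, as both failed the count filter in microglia. This gave 16 fits per comparison. At 6 months 0 of 16 fits were called, with a smallest adjusted p of 0.164 in edgeR and 2 fits at an unadjusted p under 0.05. At 12 months 0 of 16 were called, with a smallest adjusted p of 0.226 and again 2 fits at an unadjusted p under 0.05. DESeq2 also called 0 of them at either age.

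For reference, the share of all tested genes called at 6 months was 1.23% in excitatory neurons, 0.85% in inhibitory neurons, 0.959% in astrocytes, 1.11% in oligodendrocytes, 0.589% in OPCs and 0.513% in microglia. At 12 months these shares were 0.992%, 5.28%, 0.563%, 1.74%, 0.724% and 1.01%. In simulated counts with the same design the test recovered 69.7% of genes changed by 1 on the log2 scale in excitatory neurons and 52.8% in microglia. Changes under 1 were not simulated, and among the members' genotype fits only Thy1 in OPCs at 12 months (1.09) exceeded that size.

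App was not called between genotypes in any class in which it was tested. In excitatory neurons at 6 months it was 609, 574 and 564 CPM in WT and 617, 629 and 636 CPM in 3xTg-AD. The 3 transgenic libraries were above the 3 WT libraries, as were those of 3.99% of all genes in that class, and the log2 fold change was 0.17 (SE 0.07, 95% interval 0.01 to 0.33, edgeR adjusted p = 0.395). At 12 months the values were 597, 628 and 687 CPM in WT and 596, 592 and 635 CPM in 3xTg-AD. The groups overlapped, and the log2 fold change was -0.02 (95% interval -0.22 to 0.18, edgeR adjusted p = 0.953).

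In oligodendrocytes, the main class in which App was highest, the level of App was 1363, 1085 and 1083 CPM in WT and 1261, 1048 and 995 CPM in 3xTg-AD at 6 months. At 12 months it was 1447, 1276 and 1292 CPM in WT and 1245, 1292 and 1361 CPM in 3xTg-AD. The genotypes overlapped at both ages, and the fitted differences of -0.10 and -0.07 had 95% intervals of -0.39 to 0.20 and -0.40 to 0.25. Both changed sign when 1 WT library was left out, to 0.02 without library 3 and to 0.07 without library 4. In inhibitory neurons, astrocytes, OPCs and microglia the App log2 fold changes lay between -0.16 and 0.17. The 95% intervals over all classes reached from -0.39 to 0.43 at 6 months and from -0.43 to 0.41 at 12 months.

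The 5 rare classes were not fitted, and 5 of their 30 combinations of member, class and age gave groups that did not overlap. In pericytes at 6 months the App level was 391, 429 and 453 CPM in WT and 682, 611 and 551 CPM in 3xTg-AD, on 23 to 69 UMIs per library. Groups did not overlap there, which held in the same direction for 6.12% of genes with at least 20 UMIs. At 12 months, with 418, 450 and 435 CPM in WT and 425, 389 and 590 CPM in 3xTg-AD, they did. In choroid plexus epithelium at 12 months App was 1096, 2243 and 1294 CPM in WT and 312, 847 and 883 CPM in 3xTg-AD, lower without overlap as 4.37% of such genes were, on 1 to 687 UMIs per library. The other 3 rested on 17 to 20 UMIs over 6 libraries. Thy1 was higher in 3xTg-AD at 6 months in pericytes (23.5 to 79.9 CPM against 8.89 to 18.7 CPM) and in choroid plexus epithelium (13.5 to 16.2 CPM against 0 to 4.67 CPM, background 6.91%). Mapt was higher in endothelial cells at 12 months (53.8 to 56.5 CPM against 12.2 to 41.4 CPM, background 4.74%). The shares of 6.91% and 4.74% are those of genes with at least 20 UMIs. Thy1 in choroid plexus epithelium (17 UMIs) and Mapt in endothelial cells (19 UMIs) did not reach that count.

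Mapt was not called between genotypes in any class in which it was tested. In excitatory neurons at 6 months it was 395, 372 and 375 CPM in WT and 359, 376 and 382 CPM in 3xTg-AD. The 12-month level was 351, 392 and 406 CPM in WT and 343, 387 and 384 CPM in 3xTg-AD. The groups overlapped at both ages and the log2 fold changes were 0.03 (95% interval -0.12 to 0.18, edgeR adjusted p = 0.909) and 0.00 (-0.19 to 0.19, edgeR adjusted p = 0.995). CPM values are not scaled by the size factors of the fit. A small fitted change can therefore differ from them in sign, as at 6 months here.

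In oligodendrocytes the level of Mapt was 1487, 1564 and 1555 CPM in WT and 1537, 1418 and 1450 CPM in 3xTg-AD at 6 months. It was 1196, 1470 and 1395 CPM in WT and 1479, 1544 and 1582 CPM in 3xTg-AD at 12 months. The 12-month groups did not overlap, with the transgenic libraries on top as for 7.9% of all genes in oligodendrocytes, yet the fitted log2 fold change was 0.16 (SE 0.13, 95% interval -0.12 to 0.45, edgeR adjusted p = 0.764). Over the 5 classes the 95% intervals of the Mapt difference reached from -0.29 to 0.36 at 6 months and from -0.26 to 0.45 at 12 months.

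Thy1 gave the members' lowest adjusted p-values and a positive fitted difference in each of its 10 fits, although that in astrocytes at 6 months (0.07) turned to -0.18 without 3xTg-AD 1. The fits of an age share the same libraries and are not separate observations. In excitatory neurons at 6 months the level was 52.8, 46.9 and 58.6 CPM in WT and 65.2, 61.4 and 59.9 CPM in 3xTg-AD. The groups did not overlap, against a background of 3.99% of genes, and the log2 fold change was 0.30 (SE 0.08, 95% interval 0.12 to 0.49, unadjusted p = 0.00473 and edgeR adjusted p = 0.164). At 12 months it was 47.5, 60.7 and 71.9 CPM in WT and 73.8, 68.6 and 73.9 CPM in 3xTg-AD. One WT library, number 12, reached into the transgenic range, and the log2 fold change was 0.32 (SE 0.11, 95% interval 0.07 to 0.57, edgeR adjusted p = 0.226).

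In inhibitory neurons the level of Thy1 was 41.7, 36.5 and 43.8 CPM in WT and 46.7, 41.2 and 41.4 CPM in 3xTg-AD at 6 months. The 12-month level was 40.5, 50.9 and 54.4 CPM in WT and 50.5, 44.6 and 54.5 CPM in 3xTg-AD. The genotypes overlapped at both ages, with log2 fold changes of 0.11 (95% interval -0.11 to 0.33, edgeR adjusted p = 0.78) and 0.15 (-0.06 to 0.37, edgeR adjusted p = 0.36). Neurons without a set transmitter, which were not tested, overlapped too. Their Thy1 level was 45.9 to 53.0 CPM in WT and 50.8 to 55.6 CPM in 3xTg-AD at 6 months. At 12 months it was 46.7 to 66.4 CPM in WT and 54.4 to 66.5 CPM in 3xTg-AD.

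**Figure D2:**
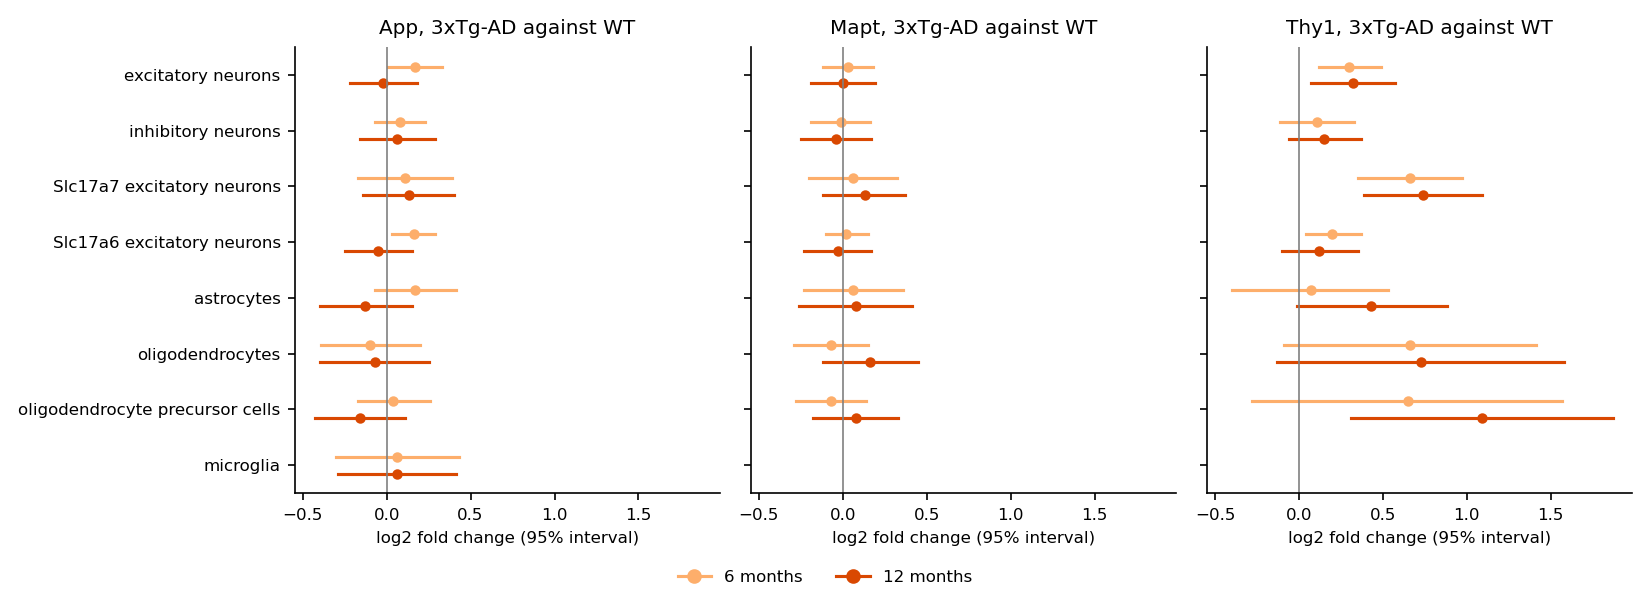
Log2 fold change of 3xTg-AD against WT for each member in each class it was tested in, at 6 and 12 months. Lines are 95% intervals from edgeR. App and Mapt points lie between -0.16 and 0.17, and Thy1 points are positive throughout, from 0.07 in astrocytes at 6 months (-0.18 without 3xTg-AD 1) to 1.09 in OPCs at 12 months.

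In glia, Thy1 was low and uneven. Oligodendrocytes held 17.2, 12.0 and 7.78 CPM in WT and 30.6, 11.2 and 19.2 CPM in 3xTg-AD at 6 months. At 12 months they held 11.4, 17.6 and 9.71 CPM in WT and 27.5, 7.72 and 29.9 CPM in 3xTg-AD. The fitted log2 fold changes of 0.66 and 0.73 carried 95% intervals of -0.09 to 1.41 and -0.13 to 1.58. They passed the threshold without the filter on low counts (edgeR adjusted p = 0.0255 and 0.00937) and, at 12 months, without library 6 (1.11, edgeR adjusted p = 0.0487). With any 1 library left out they ranged from 0.27 to 1.01 at 6 months and from 0.40 to 1.11 at 12 months.

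In OPCs the level of Thy1 was 10.5, 11.3 and 8.19 CPM in WT and 25.0, 3.01 and 18.8 CPM in 3xTg-AD at 6 months, on 4 to 31 UMIs per library. At 12 months it was 7.89, 5.24 and 7.48 CPM in WT and 14.1, 9.12 and 20.7 CPM in 3xTg-AD, with no overlap, as for 5.23% of genes in that direction, and a log2 fold change of 1.09 (95% interval 0.31 to 1.87, edgeR adjusted p = 0.321). Astrocytes overlapped at both ages, with log2 fold changes of 0.07 and 0.43. Microglia held 30.2, 9.9 and 10.7 CPM in WT and 45.9, 5.75 and 30.9 CPM in 3xTg-AD at 6 months, on 1 to 7 UMIs per library. The same transgenic libraries were low in each of the 4 glial classes, library 5 at 6 months and library 6 at 12 months.

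Markers common to all neurons (Snap25, Syt1, Rbfox3, Snhg11 and Meg3) were detected in glial classes too, and their level moved with Thy1 in these libraries. None of the 5 was at 0 in oligodendrocytes, where their sum was 1219, 683 and 1203 CPM in 3xTg-AD libraries at 6 months and 1078, 714 and 1195 CPM at 12 months, and thus also lowest in libraries 5 and 6. Over the 6 libraries of a genotype the sum was 641 to 1402 CPM (median 1067) in WT and 683 to 1219 CPM (median 1136) in 3xTg-AD oligodendrocytes. Per 1000 UMIs of these markers there were 7.32 to 17.7 Thy1 UMIs in WT oligodendrocytes and 10.8 to 25.6 in 3xTg-AD oligodendrocytes. Excitatory neurons had 2.57 to 3.79 and 3.2 to 4.56. The same markers set the neuron gate, and nuclei that passed this gate and a glial gate were left out. Their level was thereby selected high in neurons and kept low in glia, so these ratios cannot be compared between the classes. The part of neuronal RNA in the glial Thy1 values was not tested.

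Across the 6 main classes and both ages, the 3 members gave 18 combinations per age. At 6 months the transgenic libraries were above all WT libraries in 2 of the 18 (App and Thy1 in excitatory neurons), and at 12 months in 2 (Mapt in oligodendrocytes and Thy1 in OPCs). The share of all genes with the transgenic libraries on top at 6 months was 3.99% in excitatory neurons, 5.25% in inhibitory neurons, 6.92% in astrocytes, 7.86% in oligodendrocytes, 4.79% in OPCs and 6.84% in microglia. At 12 months these shares were 6.21%, 8.94%, 6.08%, 7.9%, 5.23% and 6.99%.

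Whether the genotype difference of a member was unequal between classes was tested within libraries. For each library the difference of log2(CPM + 1) between 2 classes was taken, and WT and 3xTg-AD libraries were compared by a two-sided exact permutation test (6 against 6, ages pooled, smallest possible p = 0.00216), adjusted over the 15 pairs of main classes for each gene. For App and Mapt no pair passed, with adjusted p of at least 0.819 and 0.676. For Thy1, 1 of 15 pairs passed, and it was the pair of neuron classes. Excitatory exceeded inhibitory neurons by 0.33 ± 0.08 in WT and by 0.52 ± 0.06 in 3xTg-AD (SD, n = 6), a difference of 0.20 (exact permutation p = 0.00216, adjusted p = 0.0325). The test was run on the members only, so the share of all genes that would pass it is not known.

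The difference of Thy1 between neuron classes was present at each age, at 0.15 for 6 months and 0.24 for 12 months, although 3 against 3 libraries cannot give a p under 0.1. With 1 library left out the difference was 0.17 to 0.21, and the call was lost (exact permutation, adjusted p = 0.0649) without WT 3, 7, 4 or 8 or 3xTg-AD 6. The other 14 pairs for Thy1 had adjusted p of at least 0.631. The makeup of the inhibitory class differed between groups. Nuclei in the striatal gate gave 727 of its 4071 Thy1 UMIs in WT and 423 of 4222 in 3xTg-AD at 6 months. At 12 months they gave 27 of 3138 in WT and 964 of 5071 in 3xTg-AD. The part of this makeup in the difference was not tested.

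Excitatory neurons were then divided by the transporter gene they expressed, since Slc17a7 marks most neurons of cortex and hippocampus and Slc17a6 those of thalamus, hypothalamus and midbrain. This division was chosen after the values of the undivided class had been seen. In Slc17a7 neurons at 6 months the level of Thy1 was 57.8, 41.4 and 57.1 CPM in WT and 81.2, 80.5 and 72.1 CPM in 3xTg-AD. At 12 months it was 47.6, 54.6 and 68.8 CPM in WT and 90.8, 79.2 and 110 CPM in 3xTg-AD. The genotypes did not overlap at either age, and the transgenic libraries were on top as for 4.44% and 7.26% of genes in that class.

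The log2 fold change of Thy1 in Slc17a7 neurons was 0.66 at 6 months (SE 0.14, 95% interval 0.35 to 0.97, edgeR adjusted p = 0.161) and 0.74 at 12 months (SE 0.15, 95% interval 0.39 to 1.09, edgeR adjusted p = 0.125). It was not called, in a class where 0.104% and 0.331% of genes were. The call depended on the method: DESeq2, which the study used for its own comparisons, gave 0.68 (adjusted p = 0.0337) and 0.74 (adjusted p = 0.0112). DESeq2 called 0.5% and 1.48% of genes there, out of all 24381 and 25153 with a UMI. The edgeR shares are out of the 13435 and 14205 genes that passed the count filter, so the shares of the methods have unlike bases. In Slc17a6 neurons, where 1.57% and 0.953% of genes were called, the level of Thy1 was 51.8, 48.7 and 56.3 CPM in WT and 62.0, 53.9 and 56.4 CPM in 3xTg-AD at 6 months, and 46.5, 60.2 and 70.2 CPM against 61.7, 61.1 and 63.6 CPM at 12 months. The genotypes overlapped there, with log2 fold changes of 0.20 (edgeR adjusted p = 0.292) and 0.12 (edgeR adjusted p = 0.737). Neither App nor Mapt was called in the transporter groups. App lay higher in 3xTg-AD without overlap in Slc17a7 neurons at 12 months (515 to 534 CPM against 479 to 503 CPM), where Mapt just did so too, as 7.26% of genes did there at that age. App also did so in Slc17a6 neurons at 6 months (635 to 661 CPM against 594 to 616 CPM), as 4.23% of genes did. At 12 months 5.74% of genes lay higher without overlap in Slc17a6 neurons, and none of the 3 members did.

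**Figure D3:**
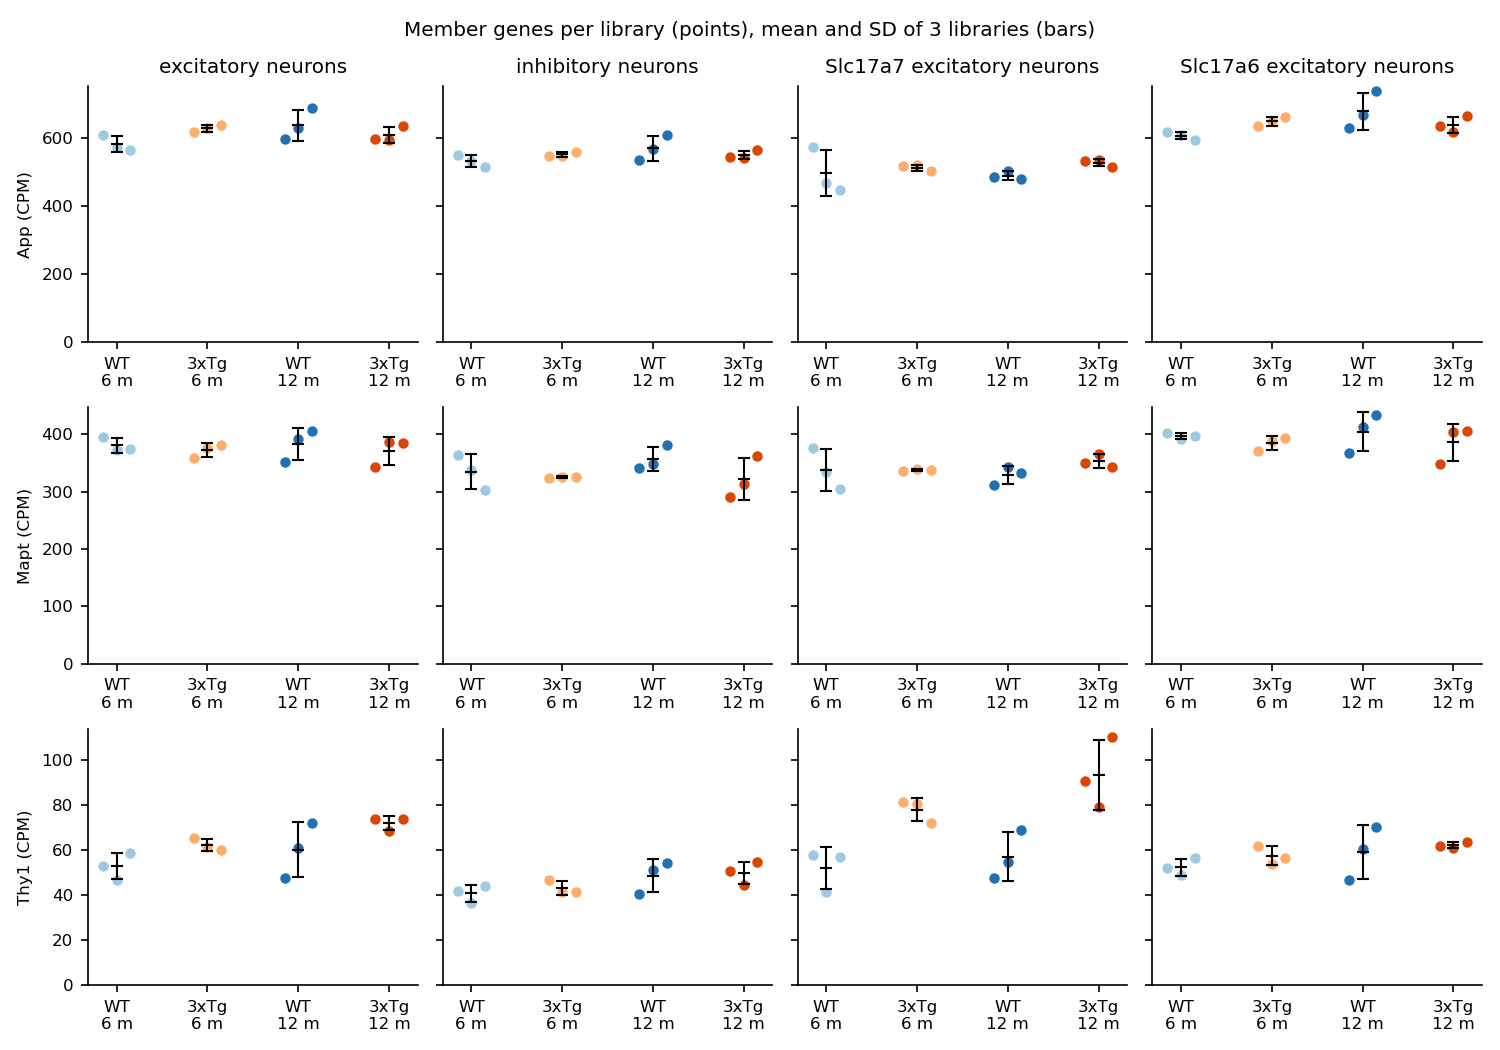
CPM of App, Mapt and Thy1 (rows) in 4 neuron classes (columns), with 1 point per library and the mean and SD of the 3 libraries of each genotype and age in months (m). In Slc17a7 excitatory neurons Thy1 lies at 41.4 to 68.8 CPM in WT and 72.1 to 110 CPM in 3xTg-AD, while Mapt in excitatory neurons (343 to 406 CPM) overlaps between genotypes at both ages.

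The difference between the transporter groups was tested as before. The Thy1 level of Slc17a7 neurons minus that of Slc17a6 neurons, in log2(CPM + 1), was -0.23 to 0.15 in WT libraries and 0.35 to 0.78 in 3xTg-AD libraries. The genotypes did not overlap, with means of -0.03 ± 0.14 and 0.50 ± 0.17 (SD, n = 6) and a difference of 0.53 (two-sided exact permutation p = 0.00216, the smallest the design allows, adjusted p = 0.00649 over the 3 members). It was 0.45 at 6 months and 0.61 at 12 months, and 0.48 to 0.57 with any 1 library left out. How many of all genes separate the genotypes in this way was not worked out. For App the difference was 0.08 (exact permutation, adjusted p = 0.333) and for Mapt 0.11 (adjusted p = 0.14). Without WT 3 both passed (0.13 and 0.14, exact permutation, adjusted p = 0.0152), and under the stricter gate Mapt did (0.14, adjusted p = 0.0357).

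**Figure D4:**
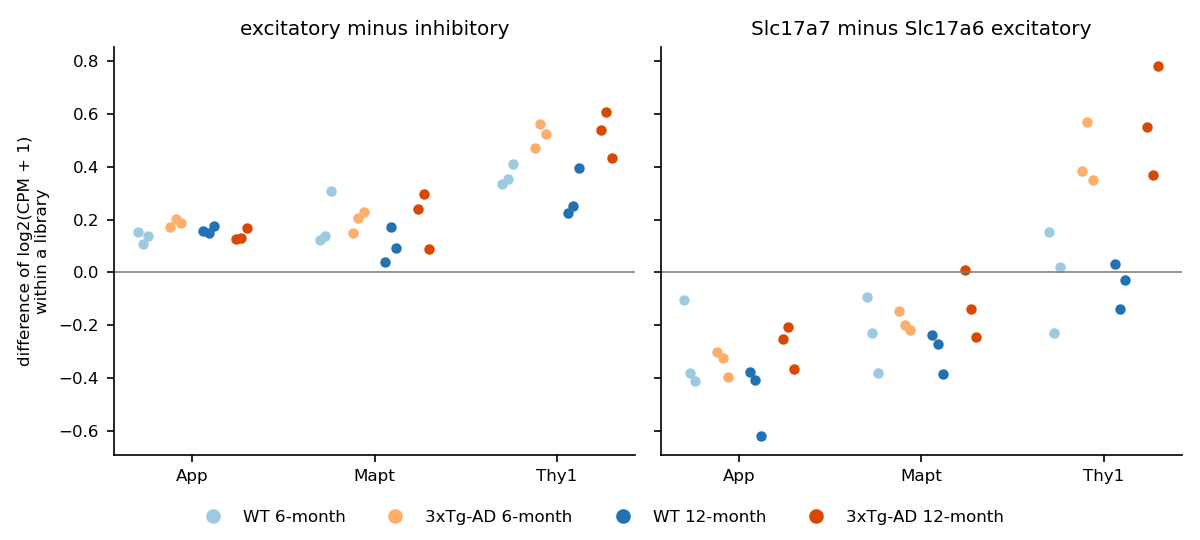
Difference of log2(CPM + 1) between 2 groups of neurons within each library, for each member, with 1 point per library coloured by genotype and age. For Thy1 the 3xTg-AD libraries lie above the WT libraries on the right (Slc17a7 minus Slc17a6 neurons, 0.35 to 0.78 against -0.23 to 0.15), while App and Mapt overlap.

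The share of Slc17a7 nuclei with a Thy1 UMI was computed from the same UMIs as the levels above and is not separate evidence. After thinning to 1000 UMIs, 5.88 ± 1.04% of them had a Thy1 UMI in WT and 8.27 ± 1.17% in 3xTg-AD (n = 6, exact permutation p = 0.00433, adjusted p = 0.026 over the 3 members and both transporter groups). Thinned to 2000 UMIs the shares were 11.1 ± 1.65% and 15.4 ± 1.88% (exact permutation, adjusted p = 0.013), and without thinning 38.2 ± 6.66% and 47.1 ± 5.19% (adjusted p = 0.208). The call at 1000 UMIs was lost without 3xTg-AD 1, 5, 2 or 6 (exact permutation, adjusted p = 0.0519) or 3xTg-AD 10 (adjusted p = 0.0649). In Slc17a6 neurons they were 5.6 ± 0.743% and 5.96 ± 0.329% (exact permutation, adjusted p = 0.448). Microglia had 1.72 ± 0.997% in WT and 3.14 ± 1.22% in 3xTg-AD at the same depth. Among the 18 comparisons of members and main classes none passed, and the lowest adjusted p of 0.429 was shared by Thy1 in excitatory neurons, oligodendrocytes, OPCs and microglia. For App in oligodendrocytes the shares were 70.1 ± 4.55% and 68.1 ± 4.45%, and for Mapt 75.0 ± 3.24% and 76.3 ± 1.47%.

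The makeup of the Slc17a7 group varied between libraries. Nuclei in the CA1 gate made up 3.26% to 21.8% of it and those in the dentate gate 1.12% to 37.6%, and 2 transgenic libraries at 12 months (2 and 6) held 1.12% and 2.13% of dentate nuclei. In these 2 libraries 80.7% and 80.8% of the group were placed in no single kind. That share was 47.0%, 52.8% and 37.7% in WT and 41.6% in 3xTg-AD 10 at 12 months. Levels were therefore also taken within kinds of neuron gated by their own markers. These gates were set with Thy1 values known, so their values are a description with no test.

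The CA1 gate was loose: it asked for Slc17a7 and 2 distinct markers among Fibcd1, Mpped1, Spink8, Wfs1 and Pou3f1. Gates of the other kinds also asked for 8 to 64 marker UMIs per 10000 UMIs of a nucleus, and this one set no such level. In the CA1 gate at 6 months the level of Thy1 was 42.3, 33.2 and 47.0 CPM in WT and 103, 104 and 86.6 CPM in 3xTg-AD. The 12-month level was 51.4, 43.3 and 60.4 CPM in WT and 83.7, 104 and 165 CPM in 3xTg-AD. The genotypes did not overlap at either age, which held in that direction for 4.33% and 8.32% of genes with at least 20 UMIs, and the ratio of group means was 2.4 at 6 months and 2.28 at 12 months. The smallest library had 14 nuclei at 6 months and 45 at 12 months, and the values rested on 12 to 314 Thy1 UMIs. A stricter CA1 gate asked for 4 marker UMIs per 10000. It left 47.4 to 58.9 CPM in WT and 144 to 150 CPM in 3xTg-AD at 12 months, against a background of 5.62%. At 6 months its groups overlapped, at 158, 41.7 and 42.5 CPM in WT and 108, 122 and 110 CPM in 3xTg-AD, with 3 nuclei and 2 Thy1 UMIs behind the highest WT value.

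Slc17a7 neurons outside the CA1 gate kept the separation of Thy1, at 58.7, 43.3 and 57.5 CPM in WT and 75.1, 80.0 and 69.0 CPM in 3xTg-AD at 6 months. At 12 months they held 45.6, 58.5 and 71.7 CPM in WT and 91.7, 76.8 and 87.5 CPM in 3xTg-AD. The groups did not overlap at either age, as those of 4.41% of genes with at least 20 UMIs at 6 months and 7.06% at 12 months did not in that direction. Most of these nuclei in 3xTg-AD libraries 2 and 6 at 12 months were placed in no single kind, so the makeup behind those values is not known.

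Other kinds of neuron overlapped between genotypes for Thy1 with 1 exception. Dentate granule neurons held 65.4, 51.4 and 48.0 CPM in WT and 64.8, 68.2 and 66.4 CPM in 3xTg-AD at 6 months, and 41.0 to 75.8 CPM against 68.3 to 121 CPM at 12 months. CA3 pyramidal neurons held 30.2 to 74.8 CPM against 52.2 to 111 CPM at 6 months and 43.0 to 62.5 CPM against 43.7 to 53.4 CPM at 12 months. Thalamic neurons, with the most nuclei per library among these excitatory kinds, had a ratio of group means of 0.993 at 6 months and 0.999 at 12 months. The exception was habenular neurons at 6 months, where WT (83.2 to 93.8 CPM) lay above 3xTg-AD (14.7 to 82.9 CPM), as for 7.56% of genes in that direction. Its lowest value was 1 UMI in 5 nuclei, and at 12 months the groups overlapped there too.

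**Figure D5:**
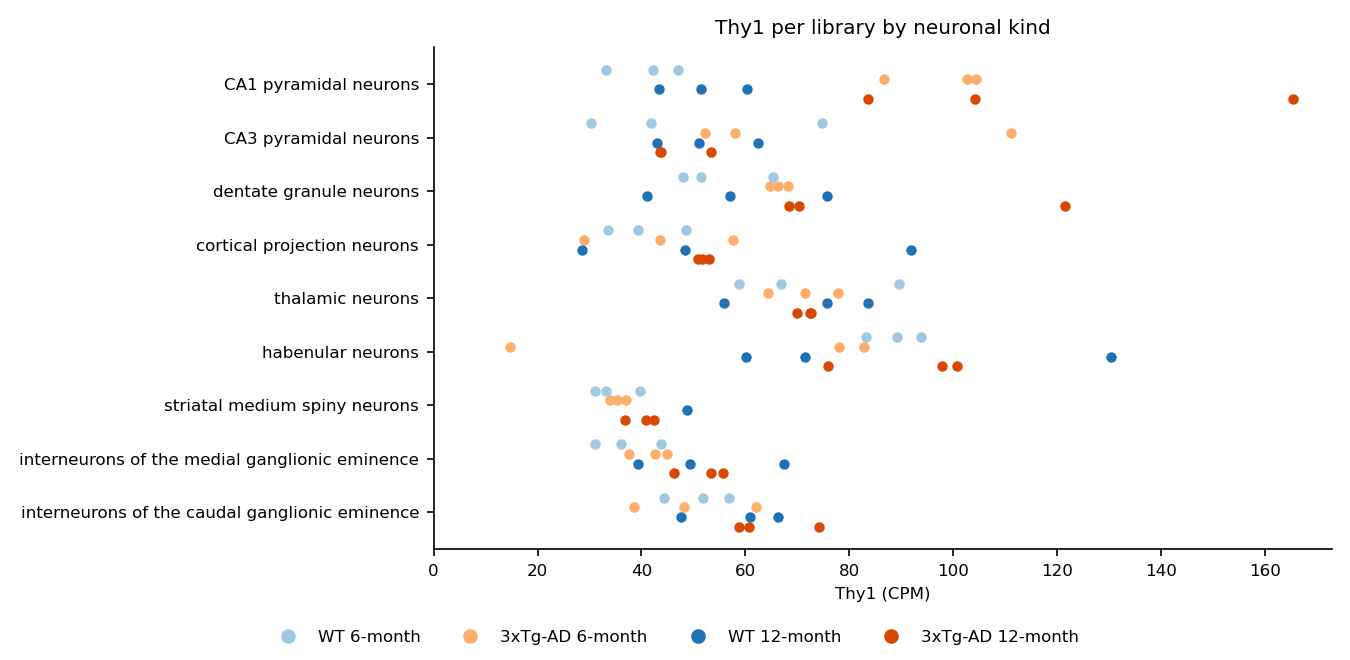
Thy1 in CPM in 9 kinds of neuron gated by their markers, with 1 point per library coloured by genotype and age and libraries with under 5 nuclei of a kind not drawn. In the CA1 gate the 3xTg-AD libraries (83.7 to 165 CPM) lie above the WT libraries (33.2 to 60.4 CPM), while thalamic neurons and interneurons overlap.

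App and Mapt separated the genotypes in 7 combinations of kind and age. App was higher in 3xTg-AD than in WT without overlap in thalamic neurons at 6 months (686 to 706 CPM against 603 to 635 CPM) and in the CA1 and dentate gates at 12 months (533 to 551 CPM against 473 to 530 CPM, and 455 to 580 CPM against 390 to 411 CPM), as 4.53%, 8.32% and 7.93% of genes were. It was lower in interneurons of the medial ganglionic eminence at 12 months (508 to 527 CPM against 528 to 652 CPM, background 6.84%). Mapt was higher in dentate granule neurons at 12 months (321 to 397 CPM against 274 to 294 CPM), and lower in striatal medium spiny neurons at 6 months (207 to 217 CPM against 230 to 245 CPM, background 9.29%) and in habenular neurons at 12 months (137 to 181 CPM against 194 to 219 CPM, background 5.56%). None of these 7 separations occurred at both ages, and 27 combinations of member and kind were looked at per age.

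Age was compared within each genotype in a fit of all 12 libraries. No member was called in any class: 0 of 16 fits passed for 12 against 6 months in WT (smallest edgeR adjusted p = 0.348, 1 fit at an unadjusted p under 0.05) and 0 of 16 in 3xTg-AD (smallest edgeR adjusted p = 0.818, 2 fits at an unadjusted p under 0.05). DESeq2 called 0 in either. Of all genes tested in WT, 0.24% were called in excitatory neurons, 0.608% in inhibitory neurons, 0.357% in astrocytes, 0.963% in oligodendrocytes, 0.13% in OPCs and 0.761% in microglia. In 3xTg-AD 0.0052% were called in inhibitory neurons, 0.00714% in astrocytes, 0.0186% in OPCs and 0% in the other 3 classes.

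Thy1 in inhibitory neurons had similar fitted differences with age in both genotypes, 0.19 in WT and 0.23 in 3xTg-AD (95% intervals -0.01 to 0.39 and 0.03 to 0.44). In excitatory neurons they were 0.20 and 0.22 (-0.02 to 0.42 and 0.00 to 0.44). App in oligodendrocytes differed by 0.22 in WT and 0.25 in 3xTg-AD, and App in astrocytes by 0.02 and -0.28, none past the threshold. The 95% intervals of App and Mapt over all classes and both genotypes reached from -0.54 to 0.55.

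The interaction of genotype and age was not called for any member either. The smallest edgeR adjusted p among 16 fits was 0.603, for App in excitatory neurons, with a difference of the genotype effects of -0.20 (95% interval -0.41 to 0.02) and 0 fits at an unadjusted p under 0.05. DESeq2 called 0. Of all genes, 0.0522% were called in excitatory neurons, 0.0779% in inhibitory neurons, 0.0785% in astrocytes, 0.0607% in oligodendrocytes, 0.0651% in OPCs and 0.273% in microglia.

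The relatives and partners of the members were followed in 4 lists, over 12 combinations of class and age, in which 0.513% to 5.28% of all genes tested were called. Of 11 APP relatives and adaptors (121 fits), 1 fit was called higher and 1 lower. Itm2b, which encodes the BRI2 membrane protein, rose by 0.32 in excitatory neurons at 6 months (edgeR adjusted p = 0.0472), and Apba2, which encodes an APP-binding adaptor, fell by 0.89 in oligodendrocytes at 6 months (edgeR adjusted p = 0.0498). Leaving out any 1 of 5 of the 6 libraries ended either call, as did one fit of all 12 libraries (edgeR adjusted p = 0.187 for Itm2b and 0.313 for Apba2). The call of Itm2b was also lost after thinning to the smallest library (0.0653) and without the striatal, thalamic and habenular gates (0.0594). Their medians in excitatory neurons were 0.05 at 6 months and -0.02 at 12 months, beside -0.01 and 0.00 over all genes tested.

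Among 17 microtubule-associated proteins (181 fits), 1 was called, Map1s in inhibitory neurons at 12 months with a log2 fold change of 0.52 (edgeR adjusted p = 0.0377), and 0 were lower. Among 27 tau kinases and phosphatases (286 fits), 0 were higher and 1 was lower, Mark1 in oligodendrocytes at 12 months, a kinase of microtubule-binding proteins that fell by 1.24 (edgeR adjusted p = 0.0434). Each of these calls was lost without any 1 of 5 libraries. That of Map1s was also lost in the fit of all 12 libraries (edgeR adjusted p = 0.0612) and without the regional gates (0.0604), and that of Mark1 with nuclei of several gates kept (0.0581) and after thinning (0.0696). In excitatory neurons at 6 months the list medians were 0.04 and 0.05.

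The 20 neuronal GPI-anchored surface proteins, to which Thy1 belongs by its anchor, gave 1 higher and 4 lower calls in 199 fits. The lower calls were all Lynx1, which encodes a modulator of nicotinic acetylcholine receptors. In excitatory neurons it fell from 58.4, 59.4 and 60.4 CPM in WT to 30.7, 34.5 and 31.8 CPM in 3xTg-AD at 6 months, a log2 fold change of -0.82 (SE 0.07, edgeR adjusted p = 0.000765). The log2 fold change was -0.83 (adjusted p = 0.0353) at 12 months, and -0.99 (adjusted p = 0.000604) and -0.87 (adjusted p = 0.0106) in inhibitory neurons. The 6-month values kept their call with any 1 library left out, and the 12-month values lost it without library 2 or 6 in both classes and also without library 8 or 12 or under the stricter gate (edgeR adjusted p = 0.0558) in excitatory neurons. The higher call was Cntn4, an axonal adhesion protein, in oligodendrocytes at 12 months, from 59.0, 61.3 and 43.0 CPM in WT to 113, 113 and 135 CPM in 3xTg-AD (1.10, edgeR adjusted p = 0.00441).

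The tested protein-coding genes next to each member, 2 on each side, were looked at for the same comparison, in which edgeR called 0.513% to 5.28% of all genes tested. Kansl1, 1139 bp from Mapt, was not called in any of 12 fits (log2 fold changes of 0.01 to 0.22), and neither were Crhr1, Arf2 and Cdc27. Near App, edgeR called 0 of 35 fits of Gabpa, Atp5j, Cyyr1 and Adamts1, with 7 at an unadjusted p under 0.05, and DESeq2 called 1. That was Adamts1, which encodes a secreted metalloprotease and lies 620061 bp away, in excitatory neurons at 12 months. Its level there was 2.83, 2.95 and 2.78 CPM in WT and 1.44, 0.902 and 1.43 CPM in 3xTg-AD, a log2 fold change of -1.13 (edgeR adjusted p = 0.072, DESeq2 adjusted p = 0.00849, 2.3% of genes called by DESeq2). The log2 fold changes of Adamts1 at 12 months were -1.58 in astrocytes, -1.24 in OPCs, -0.71 in oligodendrocytes and -0.59 in inhibitory neurons (smallest edgeR adjusted p = 0.145), and at 6 months the 5 classes gave -0.43 to 0.65. Near Thy1, Usp2 (18442 bp away) had a smallest edgeR adjusted p of 0.0703, in inhibitory neurons at 12 months (0.79), where DESeq2 called it (adjusted p = 0.00804) with 7.23% of genes. Oaf and Gm49380 were not called, and Nectin1 (235923 bp away) was called once in 10 fits, in inhibitory neurons at 12 months (-0.69, edgeR adjusted p = 0.036, 5.28% of genes called), a call lost under the stricter gate, without any 1 of 5 libraries and without the striatal, thalamic and habenular gates (-0.44, edgeR adjusted p = 0.0601). DESeq2 also called Nectin1 in oligodendrocytes at 12 months (-0.73, adjusted p = 0.0365, 1.21% of genes called). The DESeq2 shares are of all genes with a UMI in the class, and the edgeR shares are of genes that passed the count filter.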

How the data were processed

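Nuclei were sorted by flow cytometry and libraries were made with a Chromium Single Cell 3′ kit. According to the study's methods and the submitters' processing notes, the authors aligned reads to GRCm38/mm10 with Cell Ranger 6.1.1 and deposited raw UMI counts per gene and barcode, as whole numbers. The removal of ambient RNA that the study describes came after this step and is not in these counts, so free RNA remains in the values. Members and gene lists were chosen with earlier results of these data known.

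The study's filters on nuclei were applied, namely 500 to 10000 genes, no more than 5% of UMIs from mitochondria, and a complexity (log10 of genes divided by log10 of UMIs) above 0.8. The study words this last limit as a removal of nuclei above it, and it was read here as keeping them. Classes were gated on marker UMIs per 10000 UMIs of a nucleus: 64 for neurons, astrocytes, oligodendrocytes, OPCs and endothelial cells and 32 for microglia and the other classes, from 3 or 4 distinct markers. Neurons needed 1 UMI of Slc17a6 or Slc17a7 and no inhibitory marker for the excitatory class, or 2 UMIs of Gad1, Gad2 and Slc32a1 and neither transporter for the inhibitory class. Nuclei passing several gates were left out and no doublet caller was run. Nuclei were not clustered, and no annotation by the authors was used here.

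Pseudobulk sums of each class in each library were fitted with edgeR 4.0.16 in R 4.3.3 (TMM, filterByExpr, glmQLFit, glmQLFTest), each age on its own for genotype and all 12 libraries for age and interaction. DESeq2 1.42.0 was an alternative. Steps were tested on simulated data. Permutation tests went through every split of the libraries with NumPy 2.4.6, on log2(CPM + 1) for levels and on percentages for shares of nuclei. The planned fit within kinds of neuron was replaced by values without a test, because the gates of the kinds were set after Thy1 values had been seen. Named genes were the members, called genes of each list, the 2 nearest tested coding genes on each side of a member and the 3 genes most like it, and 1 further gene of the rule, with the rest of the genotype, is not reported here. Alternatives covered the size factors, the count filter, the test, the gates, the filters on nuclei, thinning to equal depth, regional gates and leaving out each library. Gene positions came from the GENCODE annotation given with the genome. Each library is 1 animal, so p-values measure the spread between animals of a group together with that of library preparation.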

Additional observations from a re-analysis of the deposited data

Results flagged for a closer look

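The Thy1 genotype effect differed between groups of neurons in a test of the difference itself, in 2 comparisons. These tests were run on the members only, so the share of all genes that would pass is not known. The effect was larger in excitatory than in inhibitory neurons by 0.20 on the log2(CPM + 1) scale (two-sided exact permutation, adjusted p = 0.0325 over 15 pairs, and 0.0649 without WT 3, 7, 4 or 8 or 3xTg-AD 6), and larger in Slc17a7 than in Slc17a6 excitatory neurons by 0.53 (adjusted p = 0.00649 over 3 genes), a division chosen after values of the undivided class were seen.

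Nuclei that passed no gate take part in no comparison, and at 6 months they separated the genotypes for a pair of members. Mapt was 194, 201 and 156 CPM in WT and 232, 240 and 212 CPM in 3xTg-AD, so that the lowest transgenic library (212 CPM) lay above the highest WT library. Thy1 was 21.4, 32.4 and 33.7 CPM in WT and 52.0, 47.0 and 45.7 CPM in 3xTg-AD, with the lowest transgenic library at 45.7 CPM. Of 15267 genes with at least 20 UMIs in these nuclei at 6 months, 6.4% had every transgenic library above every WT library. At 12 months both overlapped, at 206, 210 and 245 CPM against 272, 213 and 258 CPM for Mapt and 32.7, 44.1 and 49.7 CPM against 23.6, 23.3 and 63.1 CPM for Thy1. What these nuclei are was not tested, and this separation was not tested either.

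In 0 of 48 groups of 6 libraries (member, class and genotype) did a single library stand apart from the other 5 by Dixon's criterion, which chance alone would flag in about 1 of 20 groups.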

How the results depend on the processing

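Of 1074 values recomputed for 72 results, 973 kept their direction and their side of the threshold, and 101 did not; the causes were not tested. No paired analysis was possible because library numbers are unique and groups share none.

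Without the filter on low counts Thy1 was called in oligodendrocytes (edgeR, 0.66, adjusted p = 0.0255 at 6 months, and 0.72, adjusted p = 0.00937 at 12 months). This made 1 called member at each age in place of 0. The share of all genes called without that filter is not given here, so these calls have no background beside them. Thy1 in Slc17a7 neurons was called without that filter (0.67, 0.0204; 0.76, 0.018), by DESeq2 (0.68, 0.0337; 0.74, 0.0112) and, at 12 months, in the 12-library fit (0.73, 0.0465). The stricter gate put the Mapt difference between Slc17a7 and Slc17a6 neurons past the threshold (0.14, 0.0357). Without thinning, the Thy1 share of Slc17a7 nuclei differed by 8.91 percentage points (0.208) and that of inhibitory nuclei by -0.685 in place of 0.13. Adamts1 in excitatory neurons at 12 months was also called without the filter on low counts (-1.13, 0.0381), after thinning (-1.23, 0.0467) and without 3xTg-AD 10 (-1.21, 0.0433). Counts thinned to the smallest library turned App in OPCs at 6 months from 0.04 to -0.02.

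Leaving out 1 library gave these ranges at 6 months: App -0.20 to 0.02 in oligodendrocytes (above 0 without WT 3), -0.01 to 0.11 in OPCs (below 0 without 3xTg-AD 1) and -0.02 to 0.12 in microglia (without 3xTg-AD 5); Mapt -0.01 to 0.07 in excitatory neurons (without WT 11), -0.07 to 0.04 in inhibitory neurons (without WT 3) and -0.12 to 0.18 in astrocytes (without 3xTg-AD 1); Thy1 -0.18 to 0.29 in astrocytes (without 3xTg-AD 1). At 12 months they were -0.14 to 0.07 for App in oligodendrocytes (without WT 4), -0.05 to 0.20 in microglia (without 3xTg-AD 6), -0.03 to 0.24 for Mapt in astrocytes (without 3xTg-AD 6), 0.40 to 1.11 for Thy1 in oligodendrocytes (called without 3xTg-AD 6, so 0 to 1 members called) and 0.61 to 0.85 in Slc17a7 neurons (called without 3xTg-AD 10, 0.61, adjusted p = 0.0145). The Thy1 difference between excitatory and inhibitory neurons was 0.17 to 0.21 and the number of pairs 0 to 1, the call being lost (adjusted p = 0.0649) without WT 3, 7, 4 or 8 or 3xTg-AD 6. The Slc17a7 minus Slc17a6 difference was 0.03 to 0.13 for App and 0.08 to 0.14 for Mapt, both with adjusted p = 0.0152 without WT 3. The Thy1 share of Slc17a7 nuclei differed by 1.98 to 2.66 (adjusted p = 0.0519 without 3xTg-AD 1, 5, 2 or 6 and 0.0649 without 10), and that of inhibitory nuclei by -0.0357 to 0.302 (below 0 without WT 7 or 3xTg-AD 10).

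DESeq2 and leaving out a library were not run within kinds of neuron, since no test was made there. Depth limits Thy1 in glia and rare classes, where values rest on few UMIs. Kinds of neuron and genotype could not be separated within a class beyond the gates used.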
